A study of Mus musculus with 5 samples.

Results

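The RNA of mouse peritoneal cells taken 2 h after an injection of AEPS alone was set against that of cells taken 2 h after ovalbumin (OVA) alone, across every gene the arrays measured. AEPS, studied as a vaccine adjuvant, is a root polysaccharide of Actinidia eriantha, a plant of the kiwifruit genus. Ovalbumin is the egg-white protein used as a model antigen. All animals were female BALB/c mice, injected into the peritoneal cavity with 50 µg AEPS, 25 µg OVA, 25 µg OVA with 50 µg AEPS, 25 µg OVA with the aluminium salt adjuvant alum at 200 µg, or PBS, the vehicle. Each of the 5 injections has 1 single-colour array, and how many mice gave the RNA of an array, or whether it was pooled, is not stated in the sources used here. The AEPS and OVA arrays are 2 of the 5. A level is the log2 signal of a gene's probe minus the log2 of the 75th percentile of that array, so a level of 0 is the 75th percentile. A difference is the AEPS level minus the OVA level. Of 20121 genes with a value on every array, 14845 had a probe that the scanner software flagged as well above background on the AEPS or the OVA array and were described. With 1 array per injection no test was possible, and higher and lower describe these arrays only.

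Type I interferons are cytokines made when cells sense viruses, microbial products or other danger signals. They bind a receptor on nearly every cell, and through the kinases JAK1 and TYK2 they activate the transcription factor complex ISGF3, to which STAT2 and IRF9 belong. ISGF3 binds a short promoter sequence, the interferon-stimulated response element (ISRE), and switches on antiviral genes such as the Ifit, Oas and Gbp families. Resident macrophages, the main phagocytes of the peritoneal cavity, respond to injected substances within hours with such genes and with chemokines that call in neutrophils and monocytes.

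The labelled tissue was checked against its defining markers. Macrophage, B cell, T cell, mast cell and neutrophil markers were well above background on both arrays. Adgre1 (F4/80) had a level of 6.75 on the AEPS array and 6.91 on the OVA array, Cpa3 of mast cells had 5.05 on the AEPS array and 5.17 on the OVA array, and S100a8 of neutrophils had 9.58 on the AEPS array and 9.41 on the OVA array. In such bulk RNA, fewer cells of a type and less RNA per cell cannot be told apart. On each array between 56.7% and 60.0% of 55681 probes passed that background flag, with 56.7% on the AEPS array and 59.3% on the OVA array. The 2 arrays lay side by side on 1 slide, in row 2, so that place on the slide and injection cannot be told apart. The PBS array alone lay in row 1 of that slide. Its 75th percentile signal was 335.5, against 397.7 to 437.2 on the others, and an effect of that place on its levels was not tested. The scanner's error model gave a technical SE of 0.204 (median) for a difference, a value that does not cover how much mice or arrays vary.

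On the AEPS array 631 genes (4.25%) were at least 2-fold higher than on the OVA array and 481 (3.24%) at least 2-fold lower. The median of all genes was -0.03. Most of the lower genes were dim. Among the 3631 genes with a mean level above 3, 112 were higher (3.08%) and 20 were lower (0.551%), while among the 2899 with a mean level under -3 the numbers were 300 (10.3%) and 297 (10.2%). With genes required to be well above background on both arrays, 418 of 13935 (3.0%) were higher and 226 (1.62%) were lower. Where a gene was dim on 1 array its difference is given below as a bound, "at least N-fold", which uses the dimmest signal still flagged well above background there. Scaling the arrays by spike-in RNA moved the median of all genes by 0.48, with 1534 genes then higher and 269 lower.

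**Figure D1:**
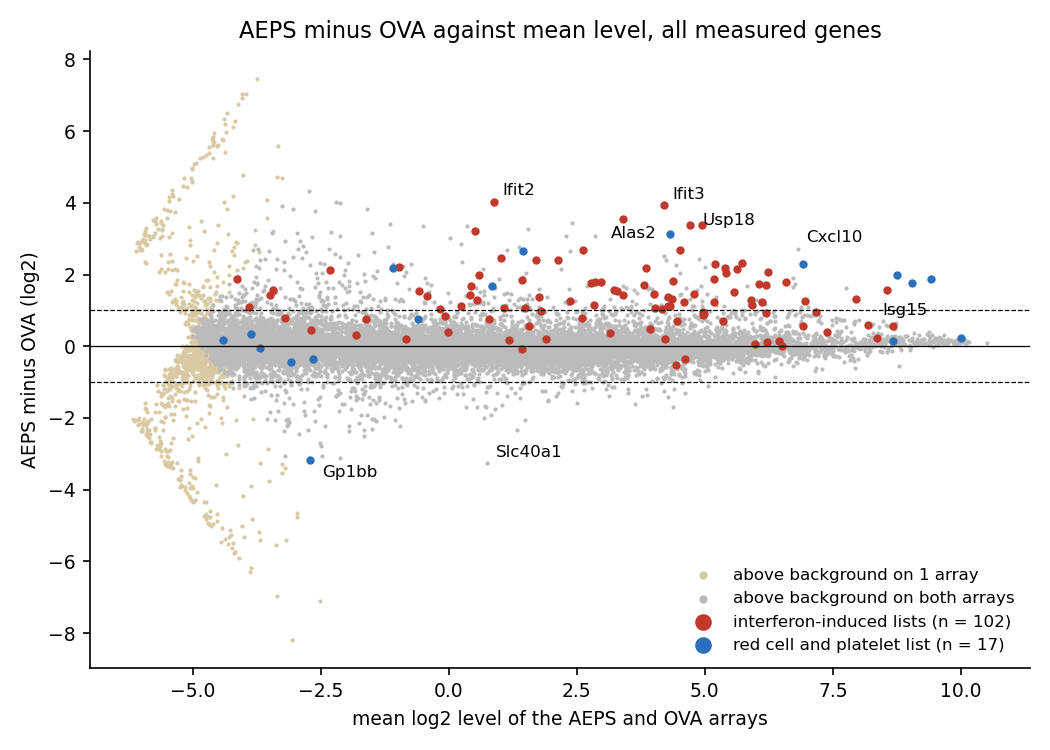
Difference (AEPS minus OVA, log2) against the mean level of the AEPS and OVA arrays for 14845 genes, with dashed lines at 2-fold. Genes above background on 1 array only spread widely at the dim end, while the interferon-induced genes in red lie above 0 for 99 of 102 members and reach into the bright range.

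Interferon-induced genes were higher on the AEPS array. Across 6 lists of such genes, 102 of 111 listed members were measured, of which 67 (65.7%) were at least 2-fold higher on the AEPS array and 0 lower, against 4.25% higher of all genes. Their median difference was 1.27 and their range -0.52 to 4.03. The members below 0 were the adaptor Sting1 (-0.52), the membrane protein Ifitm1 (-0.35) and the adaptor Mavs (-0.08), Ifitm1 being named after its values were seen. With spike-in scaling Ifitm1 and Mavs lay above 0. The 67 include 20 that were at least 4-fold higher, against 1.58% of all genes at that size. Of the 67, 21 had a further probe above background, and each of the 21 had such a probe that was also at least 2-fold higher. Over all higher genes this held for 54 of 83 with a further probe, with 5 having one at least 2-fold the opposite way, and over all lower genes for 19 of 47, with 2 the opposite way.

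The ISRE appears in the promoters of many of these genes. Searched on both strands was its core, GAAA, then any 2 bases, then GAAA again, from 250 bases before to 50 bases after the start of each gene, in RefSeq sequence of GRCm38.p6. Promoters of 9 genes that carry the match are shown, since each gene or its family is described below. Each is written 5′ to 3′ on the strand of its gene, with the matches in capitals. On the opposite strand the match reads TTTC, any 2 bases, TTTC, and where 2 or 3 matches overlap they form 1 run of capitals.
Ifit1 (chr19:34640765-34640833, + strand): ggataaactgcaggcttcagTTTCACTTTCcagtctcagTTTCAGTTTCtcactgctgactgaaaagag
Ifit3 (chr19:34583353-34583436, + strand): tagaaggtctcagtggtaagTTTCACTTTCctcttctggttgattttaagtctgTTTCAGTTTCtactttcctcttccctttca
Rsad2 (chr12:26456543-26456592, - strand): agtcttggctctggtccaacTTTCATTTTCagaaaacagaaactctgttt
Isg15 (chr4:156200855-156200916, - strand): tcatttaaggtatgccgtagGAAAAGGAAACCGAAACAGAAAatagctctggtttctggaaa
Irgm1 (chr11:48871421-48871470, - strand): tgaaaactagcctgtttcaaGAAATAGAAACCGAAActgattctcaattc
Tgtp2 (chr11:49064253-49064302, - strand): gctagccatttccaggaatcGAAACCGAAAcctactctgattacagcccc
Oas1a (chr5:120907526-120907565, - strand): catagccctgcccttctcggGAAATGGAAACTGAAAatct
Socs1 (chr16:10785584-10785639, - strand): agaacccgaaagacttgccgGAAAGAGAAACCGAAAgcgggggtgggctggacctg
Cxcl10 (chr5:92349073-92349122, - strand): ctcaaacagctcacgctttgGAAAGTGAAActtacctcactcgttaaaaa

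Among all 11842 measured genes with a promoter in the table, 455 (3.84%) held these letters. Of the interferon-list members that were higher on the AEPS array, 31 of 54 (57.4%) held them, and of the members that were not, 9 of 24 (37.5%) did. Among the other genes that were higher the number was 35 of 433 (8.08%), and among the lower genes it was 12 of 374 (3.21%). In the brighter range, at a mean level above 0, 42 of 157 higher genes (26.8%) and 1 of 61 lower genes (1.64%) held them. A match describes the letters and does not show that a factor binds there.

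**Figure D2:**
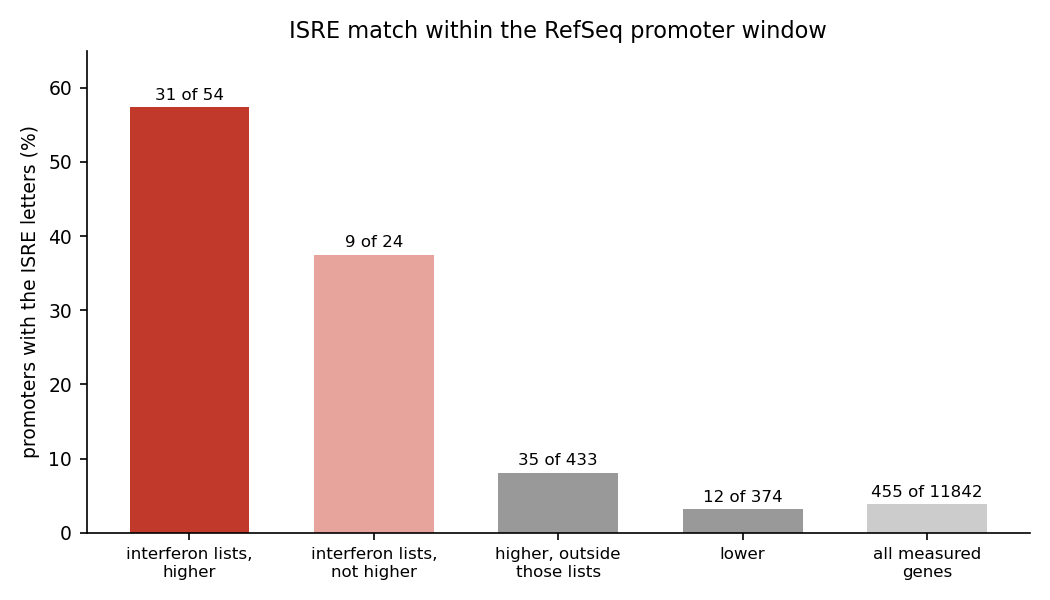
Percent of promoters (250 bases before to 50 after the gene start) that hold the ISRE letters on either strand, by gene set, with the number of genes above each bar. The share is 57.4% for interferon-list members higher on the AEPS array and 3.84% for all measured genes.

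The Ifit genes, whose proteins bind foreign RNA ends and block its translation, had the highest median of the 6 lists, at 3.46, with 5 of 6 members at least 2-fold higher. Ifit2 had a level of 2.89 on the AEPS array and -1.14 on the OVA array, a 16.4-fold difference, with 2.95, -2.51 and -3.47 on the OVA+AEPS, OVA+Alum and PBS arrays. Ifit3 had 6.17 on the AEPS array and 2.24 on the OVA array (15.2-fold), and Ifit1 had 6.63 on the AEPS array and 3.25 on the OVA array (10.4-fold). The OVA array thus lay below both arrays with AEPS and above the PBS array for Ifit2. Ifit3b (11.7-fold) and Ifit1bl1 (9.2-fold) followed, while Ifit1bl2 differed by 0.4. Ifit3 and Ifit3b are near copies, so the signal of each probe may hold RNA of the other gene.

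ISG15, a ubiquitin-like protein joined to other proteins during antiviral responses, and its enzymes gave 4 of 6 members higher. Usp18, which removes ISG15 and dampens interferon receptor signalling, had 6.39 on the AEPS array and 3.01 on the OVA array (10.4-fold), and 6.53, 2.42 and 1.6 on the OVA+AEPS, OVA+Alum and PBS arrays. Isg15 had 9.35 on the AEPS array and 7.77 on the OVA array (2.99-fold), and the ligase Herc6 and the conjugating enzyme Ube2l6 were 3.6-fold and 2.93-fold higher. The E1 enzyme Uba7 differed by 0.19.

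Of 17 measured interferon-inducible GTPases, which attack the vacuoles of intracellular microbes, 14 were higher and the median was 1.3. Tgtp2 had a level of 6.89 on the AEPS array and 4.56 on the OVA array (5.04-fold), and Irgm1, a regulator of the other family members, had 6.5 on the AEPS array and 4.31 on the OVA array (4.55-fold). Tgtp1, Irgm2 and Igtp were 4.36-fold, 3.53-fold and 3.48-fold higher. The guanylate-binding proteins differed less than these 5, from 0.33 for Gbp10 to 1.43 for Gbp2b. The GTPase Iigp1 differed by 1.3 by its brightest probe and by 3.07 by a further probe. Tgtp1 and Tgtp2 are near copies as well.

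The oligoadenylate synthetases make the second messenger that turns on RNase L, and 7 of 11 were higher, with a median of 1.26. Oas1a, the promoter of which is shown above, had 7.58 on the AEPS array and 6.32 on the OVA array (2.39-fold), and Oasl1, which limits Irf7 translation in mice, had 8.62 on the AEPS array and 7.29 on the OVA array (2.51-fold). Oas3 was 2.08-fold higher. Its OVA+AEPS and OVA+Alum levels were 1.92 and 1.77, so this member did not set the arrays with and without AEPS apart there.

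Of 17 nucleic acid sensors and adaptors, 9 were higher. The kinase Eif2ak2 (PKR), which stops translation when it meets double-stranded RNA, had 2.91 on the AEPS array and 0.5 on the OVA array (5.31-fold). The DNA sensors Ifi209 and Ifi204 were 5.26-fold and 4.11-fold higher, the RNA helicase Ddx58 (RIG-I) 3.65-fold, Zbp1 3.34-fold, Cgas 2.22-fold and Ifih1 (MDA5) 2.08-fold. Of the adaptors that carry their signals, Sting1 and Mavs had differences below 0, and the endosomal receptors differed, with Tlr3 3.65-fold higher, Tlr7 at 0.79 and Tlr9 at 0.19.

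The 45 other antiviral effectors had 28 members higher and a median of 1.24. Rsad2 (viperin), which makes a chain-terminating nucleotide, had 5.85 on the AEPS array and 3.17 on the OVA array (6.41-fold). Cmpk2, its neighbour in the genome, had 3.96 on the AEPS array and 1.28 on the OVA array (6.38-fold), and Ifi44, Phf11d and Slfn5 were 5.48-fold, 4.92-fold and 4.65-fold higher. Outside the lists, and chosen after their values were seen, Gm4951 (10.2-fold), Ifi214 (6.39-fold), Ly6a (6.28-fold), Phf11a (4.67-fold) and Ifi47 (3.72-fold) were higher too.

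The interferon genes themselves were mostly dim. Ifnb1, the first type I interferon made by many cells, had a low level of -3.73 on the AEPS array and -3.29 on the OVA array, against -3.08 on the OVA+AEPS array, and was not well above background on the OVA+Alum and PBS arrays. Of 13 measured interferon genes 2 were higher and 1 was lower, against 4.25% and 3.24% of all genes, and their median was 0.08. Ifng, the interferon of NK and T cells, had 2.19 on the AEPS array and 0.88 on the OVA array (2.48-fold), and Ifna16 was 2.3-fold higher at a level of -3.18. Ifna4 was not well above background on the AEPS array and at least 2.11-fold lower there. The Ifna genes are close paralogs that probes may not tell apart.

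Against 4.25% of all genes, 2 of 17 of their receptors and signal carriers were higher. Of these, Stat2 had 5.36 on the AEPS array and 4.23 on the OVA array (2.18-fold). The receptor chain Ifnar1 had a difference of -0.62 and Ifnar2 of -0.11, and the kinases Jak1 and Tyk2 differed by 0.12 and -0.13. Of 9 interferon regulatory factors, Irf7, the amplifier of type I interferon production, was 3.22-fold higher, at 3.54 on the AEPS array and 1.86 on the OVA array. Irf9 had a difference of 0.75, Irf1 of 0.31 and Irf3 of 0.12.

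**Figure D3:**
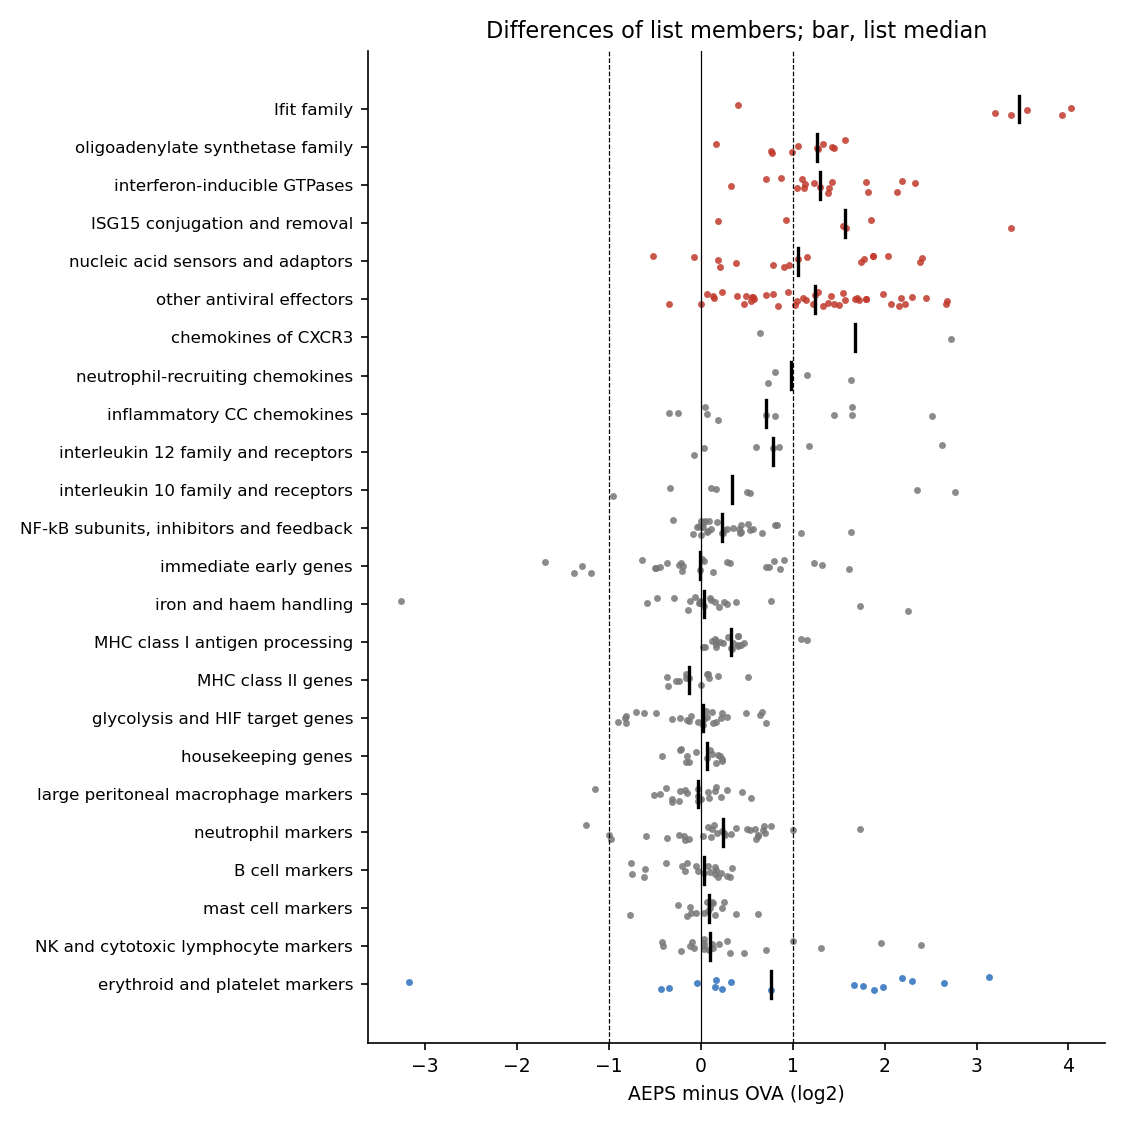
Difference (AEPS minus OVA, log2) of each measured member of 24 gene lists, 1 point per gene, with the list median as a black bar and dashed lines at 2-fold. The 6 interferon-induced lists in red lie mostly to the right of 0, while housekeeping genes stay between -0.42 and 0.23.

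Chemokines were higher on the AEPS array in part. Cxcl10, which draws T and NK cells through the receptor CXCR3, had 8.17 on the AEPS array and 5.45 on the OVA array (6.59-fold), with 8.24, 4.6 and 2.35 on the OVA+AEPS, OVA+Alum and PBS arrays. Cxcl9, another CXCR3 ligand, differed by 0.64. Of 11 inflammatory CC chemokines 4 were higher and 0 lower, against 4.25% and 3.24% of all genes. The 4 higher ones were the monocyte attractants Ccl7 (5.47 on the AEPS array, 2.95 on the OVA array, 5.75-fold) and Ccl2 (2.73-fold), and Ccl3 and Ccl4 (3.14-fold and 3.11-fold). Of 4 neutrophil-recruiting chemokines 2 were higher, Cxcl3 (3.1-fold) and Cxcl2 (2.24-fold), while Cxcl1 and Cxcl5 differed by 0.73 and 0.81. Among 12 homeostatic and other chemokines 1 was higher, Ccl19 (2.29-fold by its brightest probe, with 0.25 by a further probe), and 1 lower, Cx3cl1 (2.16-fold).

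Over all genes 4.25% were higher and 3.24% lower. Of 27 chemokine and chemoattractant receptors, 1 was higher, the non-signalling receptor Ccrl2 (2.26-fold), and 3 were lower. The lower ones were the C5a receptor C5ar2 (0.66 on the AEPS array, 2.11 on the OVA array), the chemerin receptor Cmklr1 and the neutrophil receptor Cxcr1, which were 2.72-fold, 2.56-fold and 2.37-fold lower.

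Several cytokine genes stood among the larger differences. Csf3, the growth factor of neutrophils, had 3.83 on the AEPS array and 0.75 on the OVA array (8.5-fold), with 3.89, 2.56 and 1.38 on the OVA+AEPS, OVA+Alum and PBS arrays. Il19 had 2.75 on the AEPS array and -0.01 on the OVA array (6.8-fold), Il23a, a subunit of the cytokine that keeps Th17 cells, had -0.15 on the AEPS array and -2.77 on the OVA array (6.16-fold), and the anti-inflammatory Il10 had 1.42 on the AEPS array and -0.93 on the OVA array (5.1-fold). All 4 had OVA+AEPS levels nearer to the AEPS array than to the OVA array. Il33, an alarmin, was 4.93-fold higher, Il6 2.96-fold, the growth and survival factor of NK cells Il15 2.29-fold, the antagonist Il1rn 2.28-fold, and Il27 2.26-fold.

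Other cytokine genes were lower or level. Csf2 (GM-CSF) had -2.65 on the AEPS array and -0.35 on the OVA array (4.91-fold lower), but the OVA+AEPS, OVA+Alum and PBS levels were -2.89, -3.0 and -2.19, so it was the OVA array that stood above the rest. Il13, a type 2 cytokine, was 2.79-fold lower, and Il9 was at least 2.9-fold lower, being not well above background on the AEPS array. Il12a and Il27ra differed by 0.03 and -0.07.

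Of 32 NF-kB subunits, inhibitors and feedback genes 2 were higher and 0 lower, near the 4.25% higher of all genes, and the median was 0.24. Nfkbiz, an inducible partner of NF-kB, had 1.72 on the AEPS array and 0.09 on the OVA array (3.09-fold), and Tnfaip3 (A20), a brake on the pathway, had 7.43 on the AEPS array and 6.33 on the OVA array (2.13-fold). Rela differed by -0.08. Socs1, a brake on JAK signalling, had 5.77 on the AEPS array and 4.08 on the OVA array (3.23-fold), and the co-stimulatory ligand Tnfsf9 was 3.08-fold higher. The checkpoint ligand Cd274 (PD-L1) was 2.41-fold higher and the early activation marker Cd69 3.82-fold.

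An NF-kB site, searched on both strands as GGG, then any 2 bases, then TTTCC (chosen after the values were seen), is shown for genes named above, in capitals as before.
Cxcl2 (chr5:90903782-90903850, + strand): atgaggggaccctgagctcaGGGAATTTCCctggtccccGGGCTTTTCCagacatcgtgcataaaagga
Cxcl3 (chr5:90786008-90786057, + strand): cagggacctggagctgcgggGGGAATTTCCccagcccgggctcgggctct
Il6 (chr5:30013050-30013099, + strand): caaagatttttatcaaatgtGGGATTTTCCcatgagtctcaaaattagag
Tnfaip3 (chr10:19015411-19015442, - strand): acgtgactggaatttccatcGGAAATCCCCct
These letters stood in 2.07% of all measured promoters, in 13 of 487 higher genes (2.67%) and in 12 of 374 lower genes (3.21%), so that they were about as frequent in the genes lower on the AEPS array as in those higher.

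Of 27 immediate early genes 3 were higher and 4 lower, against 4.25% and 3.24% of all genes, and the median was -0.01. Egr1, an early target of ERK signalling, had 3.52 on the AEPS array and 5.22 on the OVA array (3.24-fold lower), and 3.74, 6.17 and 4.89 on the OVA+AEPS, OVA+Alum and PBS arrays. Both arrays with AEPS were the lowest. Klf10, Egr2 and Fos were 2.59-fold, 2.45-fold and 2.28-fold lower, and Dusp6, the phosphatase that limits ERK, 2.6-fold (3.08 on the AEPS array, 4.46 on the OVA array). Batf2, an interferon-responsive member of the family, was 3.05-fold higher, Myc 2.49-fold and Maff 2.34-fold. Maff had 2.89 on the AEPS array and 2.97 on the OVA+Alum array.

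The largest lower difference among genes above background on both arrays was that of Slc40a1, ferroportin, the only known iron exporter of mammalian cells. Its level was -0.88 on the AEPS array and 2.39 on the OVA array (9.6-fold lower), and -1.57, 3.0 and 0.51 on the OVA+AEPS, OVA+Alum and PBS arrays, so both arrays with AEPS lay below the other 3. Other genes of iron and haem handling went the other way or stayed level. Lcn2, which sequesters iron-binding siderophores of bacteria, had 7.63 on the AEPS array and 5.9 on the OVA array (3.31-fold higher). Hamp, hepcidin, the hormone that degrades ferroportin, was at least 4.21-fold higher at a low level of -3.17, and was not well above background on the OVA array. In the 21 measured genes of the list, 2 were higher and 1 was lower, against 4.25% and 3.24% of all genes, and the median was 0.03.

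Other lower genes with a mean level above 0 included Gsdme, a pore-forming gasdermin, with 0.17 on the AEPS array and 2.5 on the OVA array (5.03-fold), and Osgin1, a growth inhibitor that NRF2 targets, with -0.12 on the AEPS array and 1.57 on the OVA array (3.22-fold). The cell identity factor Gata6 of resident peritoneal macrophages had 0.81 on the AEPS array and 1.96 on the OVA array (2.22-fold lower), at 0.83, 0.82 and 2.2 on the OVA+AEPS, OVA+Alum and PBS arrays, so the OVA and PBS arrays had the higher values. Chosen after their values were seen, Rgs3 had 2.83 on the AEPS array and 4.44 on the OVA array (3.05-fold lower) and Hhex was 2.86-fold lower. The 2 further probes of Rgs3 differed by -0.8 and -0.61 and were not 2-fold apart. The levels of both were also lower on the OVA+AEPS than on the OVA+Alum array. The list of Toll-like receptors and adaptors had 1 member higher and 2 lower of 26, against 4.25% and 3.24% of all genes. In the list of purinergic receptors the ADP receptor P2ry1 was 4.05-fold lower.

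**Figure D4:**
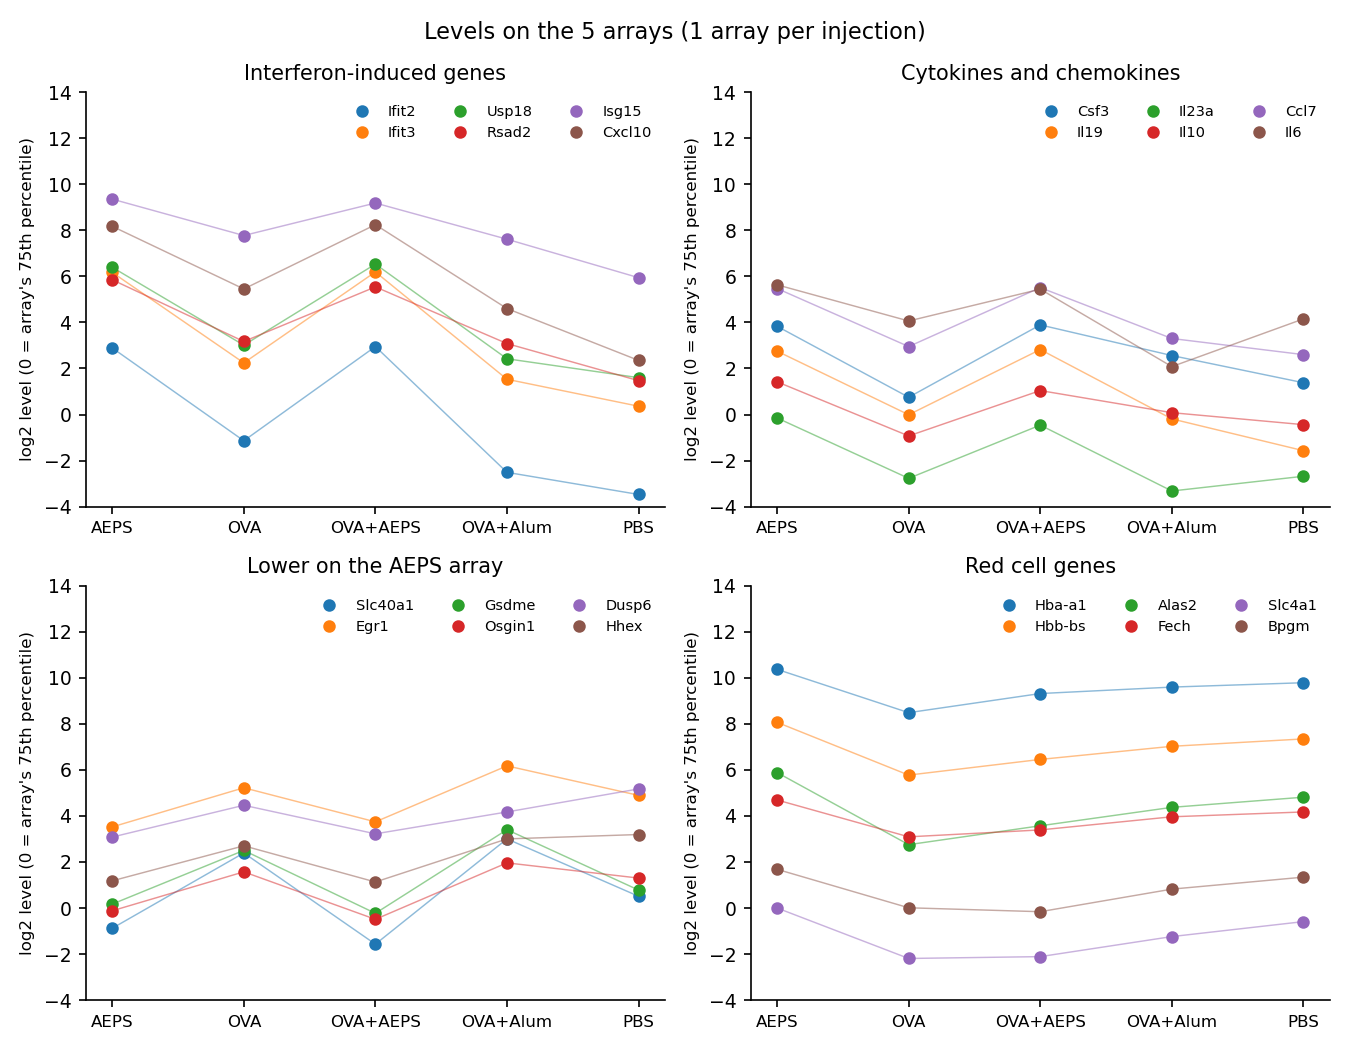
Levels (log2, 0 being the 75th percentile of an array) of 24 named genes on the 5 arrays, 1 point per array, with thin lines only to guide the eye. The interferon-induced genes are high on both arrays with AEPS, ferroportin (Slc40a1) is low on both, and the red cell genes are highest on the AEPS array and lowest on the OVA array, except Bpgm, which is lowest on the OVA+AEPS array.

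Markers of most cell types differed little, set beside 4.25% higher and 3.24% lower of all genes. Members at least 2-fold apart were 0 of 18 for mast cells, 0 of 21 for B cells and 0 of 24 for T cells, and their medians were 0.09, 0.04 and -0.03. The resident macrophage list had a median of -0.03 and 1 of 22 members lower, Gata6, against 0 higher. The neutrophil list had a median of 0.24, with 2 of 32 members higher (Lcn2 and Stfa3) and 1 lower (Cxcr1). The NK and cytotoxic lymphocyte list had 3 of 22 higher, which were granzymes and Ifng rather than surface markers. Gzmb had 5.43 on the AEPS array, 3.03 on the OVA array (5.28-fold), and 4.39, 3.82 and 2.23 on the OVA+AEPS, OVA+Alum and PBS arrays. Gzmc was 3.89-fold higher, while the NK receptors Ncr1 and Klrd1, among the 6 members not above 0, differed by -0.42 and -0.22. The list ran from -0.42 to 2.4 with a median of 0.11, and 16 of its 22 members lay above 0.

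Red cell genes were also higher on the AEPS array. Of 17 measured members of the red cell and platelet list 8 were higher and 1 lower, against 4.25% and 3.24% of all genes, with a median of 0.76. Alas2, which starts haem synthesis in erythroid cells, had 5.88 on the AEPS array, 2.75 on the OVA array (8.77-fold), and 3.57, 4.37 and 4.81 on the OVA+AEPS, OVA+Alum and PBS arrays. Hbb-bs and Hba-a1, globin genes, had 8.06 and 10.36 on the AEPS array and 5.77 and 8.48 on the OVA array. The globin genes are close paralogs that probes may not tell apart. Slc4a1, the anion exchanger of red cells, was 4.55-fold higher and Bpgm 3.18-fold. The platelet receptor gene Gp1bb was 9.09-fold lower.

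From high to low, 7 of the 17 members (41.2%) had the order AEPS, PBS, OVA+Alum, OVA+AEPS, OVA over the 5 arrays, against 102 of 14845 measured genes (0.687%). Among the 631 genes higher on the AEPS array 60 (9.51%) had it, and among the 67 higher interferon-list members 0 did. That order was read from the red cell genes and has AEPS above OVA by its construction, so these counts only describe it. These 7 red cell genes were highest on 1 array with AEPS and next to lowest on the other. The median level of the list was 1.68 on the AEPS array and 0.01 on the OVA array, and -0.16, 0.82 and 1.34 on the OVA+AEPS, OVA+Alum and PBS arrays. Outside the list, Ephb6 was 10.9-fold higher in the same order by its brightest probe, while its further probe differed by 0.84 and was not 2-fold apart. In that order too were, chosen after their values were seen, Slc6a20a (9.71-fold), Zdhhc22 (8.44-fold), Czib (5.36-fold) and Fech (3.05-fold), the last being the final enzyme of haem synthesis. The letters AGATAA, bound by the red cell factor GATA1 among others, were searched after the values were seen, on both strands, and are in capitals in the promoters of a haem and a globin gene.
Alas2 (chrX:150547311-150547356, + strand): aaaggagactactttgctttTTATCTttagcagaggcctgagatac
Hbb-bs (chr7:103828113-103828158, - strand): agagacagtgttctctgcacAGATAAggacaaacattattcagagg
These letters stood in 4 of 14 promoters of the list (28.6%), in 77 of 487 of the genes higher on the AEPS array (15.8%), in 10 of 54 of the higher interferon-list members (18.5%), in 40 of 374 of the lower genes (10.7%) and in 9.23% of all measured promoters, so they were not particular to the red cell genes. What part red cells have in other differences of this comparison was not tested.

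Mesothelial and stromal markers and endothelial markers were mostly low in level, with list medians of -0.85 and -2.98 on the AEPS array. Upk3b, a mesothelial marker, was 2.08-fold higher at -2.14 on the AEPS array and -3.2 on the OVA array, and Msln differed by 0.75. Pdgfrb, a growth factor receptor of stromal cells, was 2.18-fold lower at -3.86 on the AEPS array and -2.74 on the OVA array, so that with Upk3b 1 was higher and 1 lower of 19 measured mesothelial and stromal markers. The matrix genes Mmp13, Has1 and Timp1 were 2.86-fold, 2.23-fold and 2.01-fold higher, and Mmp3 at least 12-fold, being not well above background on the OVA array. Timp1 was not dim, at 5.26 on the AEPS array and 4.25 on the OVA array. Of 23 measured collagen and matrix genes 4 were higher and 0 lower, against 4.25% and 3.24% of all genes. Their median was 0.48, with 15 above 0, and it was -0.65 in OVA+AEPS against OVA+Alum. The coagulation starter F3 (tissue factor) had 1.76 on the AEPS array and -0.41 on the OVA array (4.49-fold higher), but 1.61, 1.74 and 0.77 on the OVA+AEPS, OVA+Alum and PBS arrays, the OVA array being the lowest. Of 12 endothelial markers 0 were higher and 3 lower, against 3.24% lower of all genes, but none of the 3 was above background on both arrays, 7 of the 12 lay above 0 and the median was 0.03. Tie1 was at least 2.59-fold lower.

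Other groups had few or no members at least 2-fold apart. Of 27 genes of glycolysis and HIF targets, 13 of MHC class II, 17 heat shock proteins, 14 metallothionein and zinc genes, 21 apoptosis genes, 19 complement genes and 16 scavenger receptors, 0 were at least 2-fold apart in either direction. Over all genes 4.25% were higher and 3.24% lower, shares at which lists this small hold few such genes. The 21 measured genes of the MHC class I processing list ran from 0.02 to 1.16 with a median of 0.33, so all 21 lay above 0. Of these 2 were at least 2-fold higher, Tap1, the peptide pump (2.13-fold), and H2-T24 (2.24-fold). The sterol synthesis and cell cycle lists each had a median of -0.22, with 2 of 22 and 8 of 29 members above 0, and spike-in scaling turned both medians to 0.26. Housekeeping genes lay between -0.42 (Tubb5) and 0.23.

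Many of the single genes with the largest differences were dim, and some stood out on 1 array. Ifit2, Ifit3 and Ifit3b were instead high on both arrays with AEPS, and Slc40a1, the largest lower difference, was low on both. The 12 higher genes with the largest difference, among those above background on both arrays, included Ifit2, Ifit3, Ifit3b and Ephb6, together with Ndufa4l2 (16.3-fold), Nkpd1 (15.9-fold), C1ql1 (15-fold), Epp13, Vmn1r89, Cacna1d and 4921504E06Rik. The further probes of Ephb6, Cacna1d and 4921504E06Rik differed by 0.84, -0.19 and 0.09, so these 3 were called by their brightest probe only. Ndufa4l2 had -0.18 on the AEPS array and -4.21 on the OVA array, with -4.65, -4.64 and -4.03 on the OVA+AEPS, OVA+Alum and PBS arrays, so only the AEPS array was raised. The largest bounds were at least 37.4-fold for Olfr1018 on the AEPS array and at least 60.2-fold for Cldn22 and 60.0-fold for Ttpa lower there. Their levels on the arrays that were not high lay between -7.58 and -4.6.

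Of the 631 higher genes, 175 (27.7%) had the AEPS array at least 2-fold above all 4 others, of which 57 were above background on both arrays, and 0 of these 175 was of the interferon lists. Another 166 (26.3%) had both arrays with AEPS at least 2-fold above the other 3, and 59 of those were of the interferon lists. Among the 481 lower genes, 161 (33.5%) had the OVA array above all 4 others, and 82 (17.0%) had both arrays with AEPS below the other 3. Olfactory receptor genes (Olfr) gave 44 of 232 measured members higher (19.0%) and 16 lower (6.9%), of which 11 and 1 were above background on both arrays. Over all genes the shares were 4.25% and 3.24%, and over those with a mean level under -3 they were 10.3% and 10.2%. The vomeronasal receptor genes (Vmn) gave 7 of 50 higher (14%) and 8 lower (16%). Probes with no gene symbol had 982 of 14719 higher (6.67%) and 746 lower (5.07%), against 5.26% and 4.1% of all 34014 probes.

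The OVA+AEPS and OVA+Alum arrays share no array with the comparison above, and they too differ by the presence of AEPS, though also by that of alum. Of 14991 genes measured there, 1013 (6.76%) were at least 2-fold higher on the OVA+AEPS array and 965 (6.44%) lower. Some cell type lists also differed in that pair. Of 22 resident macrophage markers 13 were higher and 0 lower (median 1.04). Of 32 neutrophil markers 2 were higher and 8 lower (median -0.57). What part cell content has in the counts below was not tested. Over the 14470 genes measured in both pairs, 499 were higher on the AEPS than on the OVA array, and 205 of these (41.1%) were also higher on the OVA+AEPS than on the OVA+Alum array, against 6.2% of all genes. These 205 are 22.9% of the 897 higher in that pair, and 19 (3.81%) went the opposite way, against 5.9% of all genes. Of 326 lower genes 161 (49.4%) were also lower, against 5.9%, which is 18.9% of the 854 lower in that pair, and 23 (7.06%) went the opposite way, against 6.2% of all genes.

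The interferon lists gave 64 of these 205 genes. That is 95.5% of their 67 members higher on the AEPS array, the exceptions being Oas3, Ube2l6 and Trim12a, of which Trim12a is named after its values were seen. Outside the lists the number was 141 of 432 (32.6%). In the other pair 72 of 102 members were higher, with a median of 1.55. Ferroportin (Slc40a1) had differences of -3.26 in AEPS against OVA and -4.56 in OVA+AEPS against OVA+Alum, and Gsdme -2.33 and -3.64. Alas2 had 3.13 and -0.8, Gzmb 2.4 and 0.57, F3 2.17 and -0.14, and Csf2 -2.3 and 0.11, so that these 4 were not 2-fold apart in the same direction there.

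**Figure D5:**
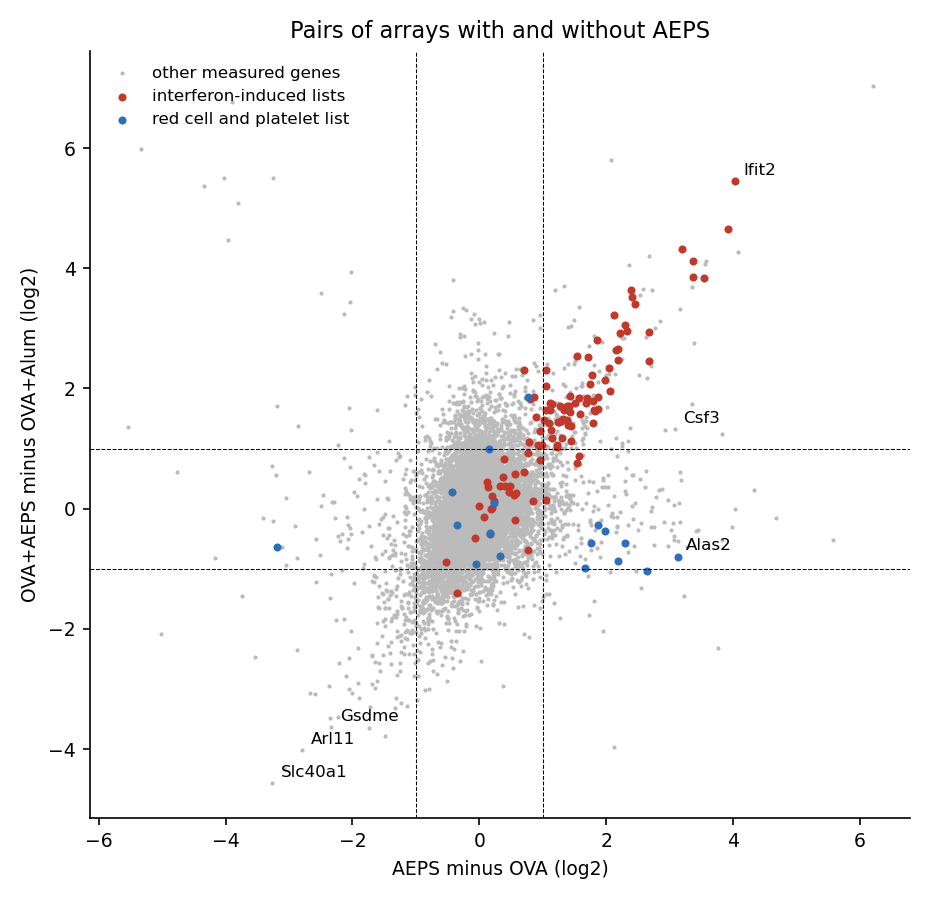
Difference of OVA+AEPS minus OVA+Alum against that of AEPS minus OVA (both log2), 1 point per gene, with dashed lines at 2-fold. The interferon-induced genes in red run up to the right, ferroportin (Slc40a1) lies at the lower left, and the 8 red cell genes that were higher on the AEPS array lie to the right and below 0 on the vertical axis.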

How the data were processed

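Peritoneal lavage RNA of 5 injections was measured on 1 single-colour Agilent array each. The authors' deposited scanner files hold linear intensity values made with Agilent Feature Extraction 10.7.1.1, per the file headers, and flags of 0 or 1, other values per the file headers, for background, saturation and outlier spots. The authors also deposited a table of log2 values that follow the log2 processed signal of each array (correlation 1.0), each column having a median of 4.66, which points to a step between arrays that the sources used here do not state. Each array holds 62976 spots. Its 3671 control spots and 134 to 219 outlier spots were left out, and 0 spots were saturated. Spots of a probe were averaged, and the log2 of the 75th percentile of the array was subtracted. Of 55681 probes 26582 had 1 gene symbol in RefSeq of GRCm38.p6 and 29099 had none. The brightest probe stood for a gene with several. A gene was called at 2-fold, with no test. Alternatives used Python 3.11.15 (pandas 2.3.3, numpy 2.4.6), R 4.3.3 and limma 3.58.1 for normexp (offset 50), and the calling was tested on simulated data.

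The groups, the 64 gene lists and the pathways were chosen with earlier results of these arrays known. Named were the 12 largest differences each way among genes above background on both arrays, the 6 largest bounds each way, up to 5 members per list by absolute difference, all members of the interferon, receptor, Ifit, Oas, GTPase, ISG15, sensor, chemokine and interleukin lists, housekeeping genes and cell type markers. Bpgm, Fos, Hba-a1, Ifitm1, Maff, Rela, Trim12a and the genes so described were chosen after their values were seen. A few genes that these rules pick are not reported here. Promoters came from a RefSeq table that held 11842 of the 14845 genes. No array interval was placed on a genome.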

Additional observations from a re-analysis of the deposited data

How the results depend on the processing

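The numbers of genes at least 2-fold apart, 631 higher and 481 lower on the AEPS array, depended on the scaling and on the treatment of dim probes. Scaling to the median over 10 spike-in probes moved the median of all genes by 0.48 and gave 1534 higher and 269 lower, 85.1% of calls being higher against 56.7%. The mean of 8 bright spike-in probes, chosen after seeing the data, moved it by 0.36 and gave 1187 higher and 302 lower (79.7%). Normexp with quantile normalization gave 301 higher and 164 lower, and genes above background on both arrays gave 418 higher and 226 lower (64.9%), from fewer genes. With no filter on dim probes 960 were higher and 701 lower. Scaling to the array median (590 and 537), quantile normalization (592 and 511), the authors' deposited table (595 and 513), bounds in place of dim values (560 and 334) and the median over a gene's probes (665 and 506) stayed within 1.5 times. Where no cause is given, the cause was not tested. The members of the interferon lists that were higher numbered between 60 and 84 of 102 under all these settings, with 0 lower in each, and the 132 named genes that were at least 2-fold apart kept their direction in each setting in which they were measured (113 to 132 of them stayed at least 2-fold apart where all 132 were measured). Signal near background limits the dim genes. No paired analysis was possible because each injection has 1 array.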

Other observations

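Gene groups not described above were also measured. Of 34 members of the TNF superfamily and their receptors 5 were higher on the AEPS array and 0 lower, against 4.25% and 3.24% of all genes. Among the higher were Tnfsf15 (3.5-fold) and Tnfsf10, the death ligand TRAIL (1.4 on the AEPS array, -0.03 on the OVA array, 2.69-fold). The median of the list was 0.1, with 20 of 34 members above 0. In OVA+AEPS against OVA+Alum 7 of 36 members were higher and 6 lower. Ch25h, which makes the antiviral oxysterol 25-hydroxycholesterol, had 1.79 on the AEPS array and 0.35 on the OVA array (2.73-fold higher), and was the single gene of 17 in the oxysterol and cholesterol efflux list that was at least 2-fold apart. Edn1, the vasoconstrictor endothelin, had 2.13 on the AEPS array and 0.94 on the OVA array (2.28-fold), with 2.66, -0.97 and -3.81 on the OVA+AEPS, OVA+Alum and PBS arrays.

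A few genes of dendritic cells and eosinophils were lower, while most members of their lists were not 2-fold apart. Flt3, the growth factor receptor of dendritic cells, had -1.27 on the AEPS array and 0.05 on the OVA array (2.49-fold lower), and Clec9a, which binds dead cells, was 2.5-fold lower. In the small macrophage and dendritic cell list 1 of 19 members was higher and 2 were lower, against 4.25% and 3.24% of all genes. The median of that list was -0.18, with 6 of 19 members above 0. Ear2 and Ear1, eosinophil ribonucleases that are close paralogs, were 2.36-fold and 2.1-fold lower. The 11 genes of the eosinophil and basophil list had 0 higher and 2 lower, with a median of -0.19 and 5 above 0. In OVA+AEPS against OVA+Alum 1 of these 11 was higher and 0 lower, and 2 and 3 of the 19 in the dendritic cell list.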
